A study of Homo sapiens with 14 samples.

Results

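The regions described here are peaks of an anti-ZNF143 antibody that were called both in untreated cells and after treatment with a degrader of ZNF143, and that lie outside promoters and protein-coding genes. They were chosen by the calls themselves. The peak list of untreated cells and the peak list of dTAG-V1-treated cells were merged at an overlap of 1 bp or more, and regions with a peak of each list were kept. The centre had to lie outside the window from 2 kb upstream to 1 kb downstream of every transcription start site (TSS) of every annotated gene, and outside every protein-coding gene body. Of 40687 merged regions, 14794 were called in both lists, or 36.4%. Among the 13676 merged regions outside TSS windows and protein-coding genes, 28.8% were called in both, which gives the 3944 shared distal regions. In all, 7327 further shared regions had their centre in a TSS window and 3523 inside a protein-coding gene away from TSS windows. Because both calls chose the regions, their presence in both lists is not a result, and the count of shared regions was not tested.

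The cells were HEK293T cells, an established human embryonic kidney line, of the single clone HEK_CloneZD29, in which ZNF143 carries an inducible degron tag (FKBP12F36V). Every group used here carries this tag. In one group the cells received no treatment (4 samples), and in the other they received 0.5 µM dTAG-V1, a small molecule that directs the tagged protein to degradation, for 30 min (4 samples). Chromatin was precipitated with the Proteintech anti-ZNF143 antibody, and the comparison asks which of the peaks of this antibody persist when ZNF143 is targeted for degradation. How much ZNF143 was left after 30 min was not measured here. The labels and the methods describe the control cells as untreated, whereas the peak names in the control list refer to DMSO, and the labels were followed. The 6 CTCF samples of the series were not analysed here. The deposited lists hold 20429 untreated and 35287 dTAG-V1 peaks, with a median width of 386 and 409 bp. There is 1 list per condition with no value for a single replicate, so that the spread between replicates is not known, nor is sequencing depth. The methods describe a rule that required a peak in each of the 4 untreated replicates but in any of the 4 dTAG-V1 replicates, and the files do not show whether the deposited lists were made in this way. If they were, a peak had an easier way into the dTAG-V1 list, which bears on the lengths of the lists and on every count of regions called in both lists or in a single list.

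ZNF143, also called Staf, is a zinc finger protein that activates transcription from many promoters, including those of small nuclear RNA genes and of the selenocysteine tRNA gene. It binds the Staf binding site (SBS), of which a form with an ACTACA element next to a TTCCCA core (SBS2 here) and a form without the ACTACA element (SBS1 here) were searched. CTCF is a zinc finger protein that binds a large number of sites, many of them far from genes, and holds chromatin loops in place together with cohesin. Its site is recognised by a core such as AGGGGGC or AGAGGGC. Regions far from promoters can also be enhancers, where lineage factors bind, or genes of RNA polymerase III such as those of tRNAs.

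Sites of both proteins were found with matrices learned from the merged peaks, and a region was counted when a hit at p 1e-05 lay within 100 bp of its untreated summit. The sites in the shared distal regions with the highest scores are shown first, since they carry the letters on which the classes rest. The last 3 sites are from the regions with the highest untreated scores among those with a CTCF hit and no SBS hit. These regions ranked only 2672, 2807 and 3079 when untreated. Capitals mark the matrix hit and lower case the 10 bases on each side, 5′ to 3′ on the strand of the hit, in hg38.
SBS2 in chr6:10146877-10147529, plus strand: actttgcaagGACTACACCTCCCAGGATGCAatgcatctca
SBS2 in chr17:16535573-16536201, plus strand: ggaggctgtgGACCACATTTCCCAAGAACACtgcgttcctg
SBS2 in chr1:234676055-234676793, minus strand: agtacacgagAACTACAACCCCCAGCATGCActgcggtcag
SBS2 in chr18:25503538-25504236, minus strand: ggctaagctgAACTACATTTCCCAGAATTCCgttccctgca
SBS2 in chr17:21098767-21099557, minus strand: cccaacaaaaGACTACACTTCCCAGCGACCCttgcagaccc
SBS2 in chr19:35931379-35931965, minus strand: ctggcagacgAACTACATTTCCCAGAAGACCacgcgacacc
SBS2 in chr19:36127611-36128309, plus strand: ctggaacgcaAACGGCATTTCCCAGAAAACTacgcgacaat
CTCF in the same region of chromosome 19, plus strand: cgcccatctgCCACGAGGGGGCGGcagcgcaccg
CTCF in chr12:114655974-114656832, minus strand: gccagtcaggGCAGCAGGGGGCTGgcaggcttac
CTCF in chr1:54996202-54996803, minus strand: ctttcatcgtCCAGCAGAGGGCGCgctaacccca
CTCF in chr7:151933171-151933585, minus strand: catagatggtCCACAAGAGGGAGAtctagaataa

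Both motifs were present at the shared distal regions above their flanks. Their shares were about equal at the threshold and summit used here, where the SBS share joins hits of the SBS1 and SBS2 matrices. The ratio to the flanks was 9.23 for CTCF and 3.61 for SBS. Hits of the CTCF matrix were found in 877 of the 3944 regions, or 22.2% (95% Wilson interval 21.0 to 23.6), against 2.41% of the 7888 windows of the same length 1 kb to either side. An SBS hit was found in 825 regions, or 20.9% (19.7 to 22.2), against 5.79% of the flanking windows. Over all 40687 merged regions, 25.4% had a CTCF hit and 20.6% an SBS hit. The SBS share was thus near that of all merged regions and the CTCF share below it. All intervals cover counting error only.

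The regions fell into 4 classes by these hits. A CTCF hit and no SBS hit was found in 752 regions (19.1%), an SBS hit and no CTCF hit in 700 (17.7%), and both in 125 (3.17%). The remaining 2367 regions (60.02%) had neither. Of the 825 regions with an SBS hit, 517 had a hit of the SBS2 matrix and 308 of the SBS1 matrix alone. An SBS2 hit need not hold the exact letters ACTACA. These letters were found in the windows of 327 of the 700 SBS-only regions and 12 of the 125 with both motifs. SBS2 was found in 479 of the 700 SBS-only regions but in 38 of the 125 regions with both motifs. In 113 of these 125 regions, an SBS hit lay apart from every CTCF hit, and in the other 12 the hits overlapped. With the permissive threshold p 5e-05 and the whole merged region searched, 594 of the regions with neither motif held a CTCF hit and 798 an SBS hit. In 1267 of them (53.5%), no hit of either kind was found.

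The motif shares were then compared with those of 4 other classes of regions by two-sided Fisher's exact tests, with p-values adjusted over the 8 comparisons by the Benjamini-Hochberg method. These tests compare sets of regions in these lists and say nothing about the spread between samples. The calls decide which class a region belongs to, whereas the letters of the genome do not depend on them. The comparisons with the distal classes called in a single list split the regions of a list by whether the other list called them too. They therefore relate motif content to the calls that the rule used. The matrices were learned on odd-numbered autosomes, and on the other chromosomes all 8 comparisons kept their direction and their side of the threshold. A CTCF hit was present at 12.5% of the shared promoter peaks, 9.76 percentage points fewer than at the shared distal regions (Newcombe 95% interval 8.27 to 11.3, Fisher's exact test, adjusted p = 4.65e-40). Shared peaks inside genes had a CTCF hit in 20.9%, and the difference of 1.32 percentage points did not pass the test (interval -0.555 to 3.18, Fisher's exact test, adjusted p = 0.176). Distal peaks called only with dTAG-V1 had a CTCF hit in 41.8%, so that the shared distal regions were lower by 19.5 points (difference -19.5, interval -21.2 to -17.8, Fisher's exact test, adjusted p = 2.33e-100). Their window was centred on the dTAG-V1 summit, the only one they have. With windows around the dTAG-V1 summit in both classes, the difference was -16.4 points (interval -18.2 to -14.7). Distal peaks called only when untreated had a CTCF hit in 3.87%, or 18.4 points fewer than the shared ones (interval 16.8 to 19.9, Fisher's exact test, adjusted p = 2.62e-90). The shared distal regions therefore lay between the distal classes called in a single list.

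For SBS hits the order of the distal classes was the opposite. Of the distal peaks called only when untreated, 53.9% had an SBS hit, and the share at the shared distal regions differed by -33.0 points (interval -35.5 to -30.5, Fisher's exact test, adjusted p = 2.53e-144). Only 4.97% of the distal peaks found with dTAG-V1 alone had an SBS hit, 15.95 points fewer than the shared ones (interval 14.6 to 17.3, Fisher's exact test, adjusted p = 1.14e-146), and this share was not above the 5.43% of their flanks. Around the dTAG-V1 summit in both classes, the difference was 13.3 points (interval 12.0 to 14.6). Shared promoter peaks had an SBS hit in 40.8%, and the shared distal regions differed from them by -19.9 points (interval -21.6 to -18.2, Fisher's exact test, adjusted p = 9.53e-105). Shared peaks inside genes had an SBS hit in 16.04%, or 4.88 points fewer than the shared distal regions (interval 3.12 to 6.63, Fisher's exact test, adjusted p = 7.78e-08). With TSS windows drawn from gene starts only, this last difference was 0.751 points and no longer passed the test (Fisher's exact test, adjusted p = 0.398). The lower CTCF share of the promoter peaks also depended on the search, since with p 5e-05 and the whole merged region the difference turned to -5.10 points (Fisher's exact test, adjusted p = 3.09e-07). The merged promoter regions were wider, with a median of 683 bp against 568 bp for the shared distal regions. The classes also differed in score, and the comparisons were not matched for it. By score percentile in the untreated list, the medians were 65.3 at shared promoter peaks, 43.2 at the shared distal regions and 41.9 inside genes. In the dTAG-V1 list, the medians were 72.4 at the shared distal regions and 41.4 at distal peaks called only there. Location and score cannot be told apart in these differences.

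**Figure D1:**
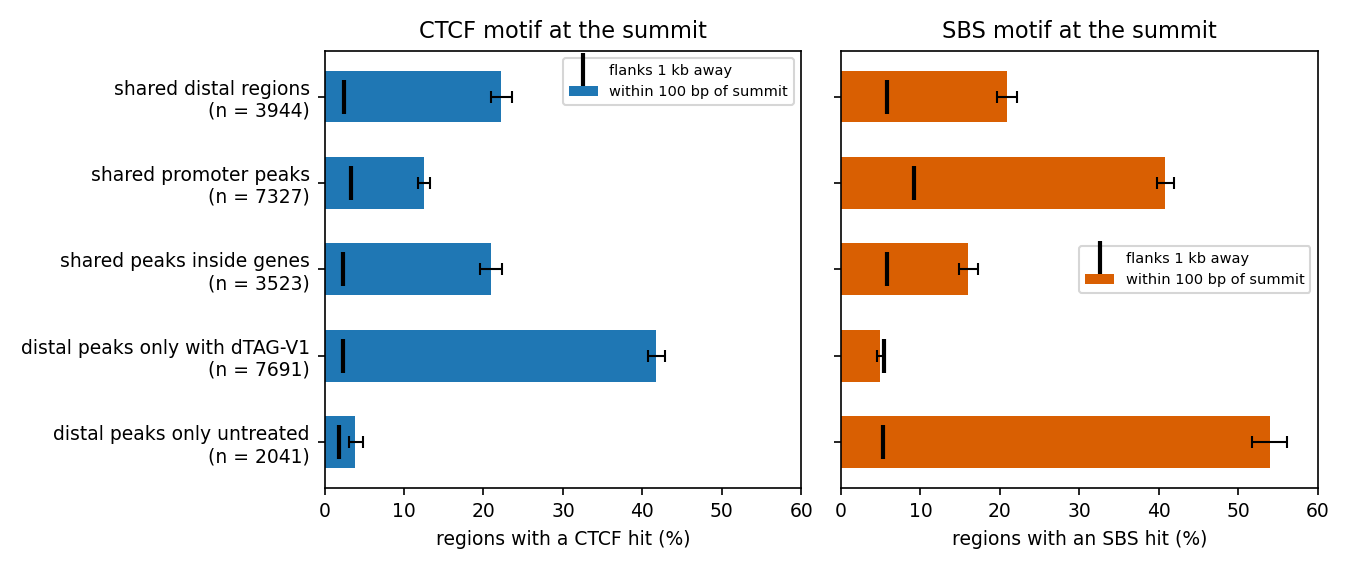
Share of regions (x axis, percent) with a CTCF hit (left) or an SBS hit (right) within 100 bp of the summit for the 5 classes of regions (y axis); bars give the share with its 95% Wilson interval and black ticks the share in flanking windows 1 kb away. The shared distal regions had a CTCF hit in 22.2% and an SBS hit in 20.9%, between the distal classes called in a single list.

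How strongly the regions were called differed between the classes. The values that follow come from the calls that chose the regions and are given as a description, with no test. Within each list, peaks were ranked by score and placed on a percentile scale on which 100 is the highest score. Ranks are comparable within a list only, and the lists differ in length, so that a region can climb in percentile without any change in signal. The 752 CTCF-only regions had a median percentile of 31.3 in the untreated list (quartiles 18.0 and 46.3) and of 79.5 in the dTAG-V1 list (66.0 and 86.3). The 700 SBS-only regions had a median percentile of 86.6 (62.7 and 90.4) when untreated and of 86.0 (55.6 and 94.2) with dTAG-V1. The CTCF-only regions were thus mostly in the lower part of the untreated list and in the upper part of the dTAG-V1 list, whereas the SBS-only regions were high in both. Regions with neither motif had medians of 40.1 and 64.6, and regions with both motifs of 42.5 and 78.1.

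A higher percentile with dTAG-V1 than without was seen in 730 of 752 CTCF-only regions (97.1%), in 1981 of 2367 regions with neither motif (83.7%), in 106 of 125 with both (84.8%) and in 460 of 700 SBS-only regions (65.7%). Over all 14794 shared regions of the lists, this share was 77.8%. The SBS-only regions spread out more with dTAG-V1, where 296 of 700 were above the 90th percentile and 151 were below the 50th, against 191 and 124 when untreated. Beside these 191, the untreated list held above the 90th percentile 10 regions with both motifs, 10 with neither and 0 with a CTCF hit alone. The fold enrichment at the summit, as called by the authors, had a median of 15.1 untreated and 5.31 with dTAG-V1 in the SBS-only regions. In the CTCF-only regions, the corresponding medians were 2.99 and 4.42, and in regions with neither motif 3.17 and 3.52. Folds of different lists are on different scales.

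**Figure D2:**
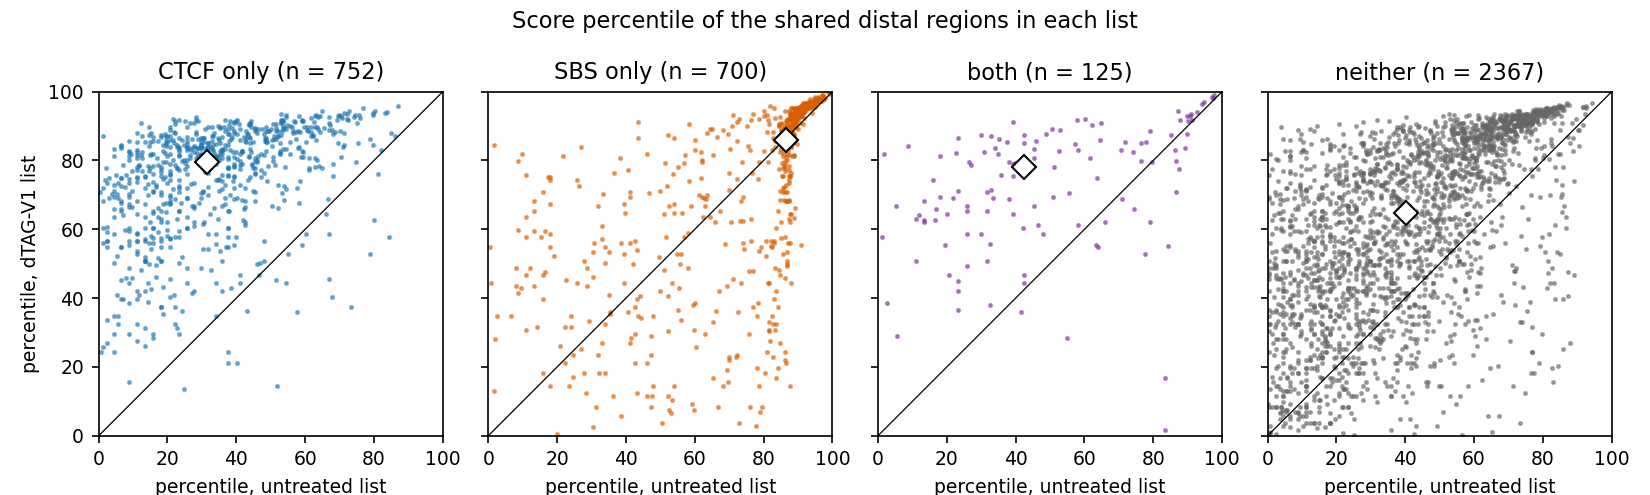
Score percentile of each shared distal region in the untreated list (x axis) and in the dTAG-V1 list (y axis), 1 point per region, by motif class; the diamond is the median and the line marks equal percentiles. CTCF-only regions lie above the line around 31.3 and 79.5, and SBS-only regions gather at the upper right around 86.6 and 86.0.

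Along the untreated list, the motif content of the shared distal regions turned over. Up to the 10th percentile of the untreated scores, 25.5% of 364 regions had a CTCF hit and 5.49% an SBS hit. Between the 30th and the 40th percentile, these shares were 31.9% and 10.4% of 479 regions. Between the 80th and the 90th, they were 6.05% and 71.3% of 380 regions. Above the 90th, 95.3% of the 211 regions had an SBS hit (interval 91.5 to 97.4) and 4.74% a CTCF hit. Ordered by the dTAG-V1 scores, the CTCF share instead rose from 1.02% of 98 regions up to the 10th percentile to 37.7% of 867 regions between the 80th and 90th percentile, and fell to 14.1% of 676 above it, where the SBS share was 46.4%. A call near the threshold can be found in a list or missed without any change in binding, which bears most on the lowest bins. The bins hold only regions that were also called in the other list, so the rule itself shapes these shares. The distal peaks called only when untreated, 53.9% with an SBS hit, had a median untreated percentile of 47.9 and a highest of 88.4. They are absent from the bins, and the shares do not describe all distal peaks of a list.

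**Figure D3:**
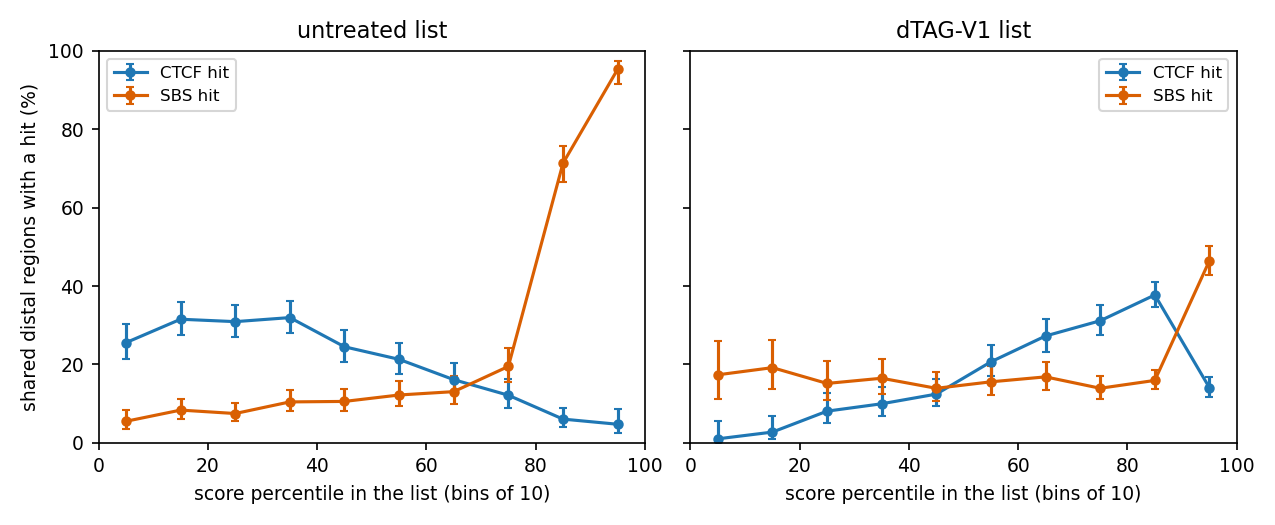
Share of the shared distal regions with a CTCF or an SBS hit (y axis, percent, 95% Wilson intervals) in bins of 10 score percentiles (x axis) of the untreated list (left) and of the dTAG-V1 list (right). SBS hits reach 95.3% above the 90th percentile of the untreated list, and CTCF hits reach 37.7% between the 80th and 90th percentile of the dTAG-V1 list.

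The regions with the highest scores are described next with their values in both lists. The region with the highest untreated score, on chromosome 6, ranked 131 of 20429 when untreated with a fold of 37.9, and 236 of 35287 with dTAG-V1 with a fold of 31.1. Its centre lies in OFCC1, which the annotation does not list as protein-coding, and the nearest protein-coding TSS, 257391 bp away, is that of TFAP2A, a transcription factor of ectoderm and neural crest. The region chr17:16535573-16536201 ranked 274 and 47 with folds of 36.9 and 35.0, the highest dTAG-V1 score of all shared distal regions. Its nearest TSS, at 27377 bp, is that of ZNF287, a zinc finger gene. Both regions held an SBS2 site with its summits 15 and 11 bp apart between the lists. Their ranks were high in both conditions.

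The region of chromosome 1, 66246 bp upstream of IRF2BP2, which encodes a transcriptional corepressor, ranked 437 and 683 with folds of 34.3 and 23.8. The region of chromosome 18, 151697 bp upstream of the zinc finger gene ZNF521, ranked 518 and 753 with folds of 34.7 and 24.7. On chromosome 17, the region 24202 bp upstream of DHRS7B ranked 646 and 368, and on chromosome 19, the region 3686 bp upstream of LRFN3 ranked 540 and 392. All 4 had an SBS2 hit and no CTCF hit, and their summits differed by 1, 2, 3 and 26 bp between the lists, in the order given.

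Regions with both motifs and high scores were led by chr19:36127611-36128309, 6065 bp downstream of the TSS of TBCB, a tubulin folding cofactor. It ranked 473 untreated and 383 with dTAG-V1, with folds of 31.8 and 31.4. The region chr17:21322811-21323563, 11045 bp downstream of the TSS of the kinase gene MAP2K3, ranked 554 and 645 with folds of 36.5 and 30.7. Another, chr9:104968010-104968686, 40193 bp upstream of ABCA1, the cholesterol exporter, ranked 571 and 596 with folds of 37.1 and 29.8. All 3 were at or above percentile 97.2 of the untreated list. A CTCF hit and an SBS hit within 100 bp of the untreated summit define this class. Near MAP2K3 the summits of both lists (21323178) lay in the SBS2 hit (21323177 to 21323197), and the CTCF hit was at 21323272 to 21323285. The sites near MAP2K3 and ABCA1 are:
SBS2 near MAP2K3, minus strand: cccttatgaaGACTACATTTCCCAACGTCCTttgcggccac
CTCF near MAP2K3, minus strand: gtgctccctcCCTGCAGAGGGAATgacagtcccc
SBS2 near ABCA1, minus strand: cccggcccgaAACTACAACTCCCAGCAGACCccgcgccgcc
CTCF near ABCA1, plus strand: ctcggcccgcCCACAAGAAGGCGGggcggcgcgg

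The highest CTCF-only regions ranked far lower when untreated. The region chr12:114655974-114656832, 23530 bp from the TSS of TBX3, a T-box transcription factor, ranked 2672 untreated and 1444 with dTAG-V1, with folds of 12.1 and 14.1. The region of chromosome 1, 2430 bp upstream of BSND, a chloride channel subunit gene, ranked 2807 and 4497 with folds of 13.6 and 5.36. On chromosome 7, the region 23001 bp upstream of GALNTL5 ranked 3079 and 4223 with folds of 9.86 and 4.50. No CTCF-only region was above the 90th percentile of the untreated list, and 77 of the 752 were above that of the dTAG-V1 list.

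The distal untreated regions can also be counted by whether they were called again with dTAG-V1. The rule fixes these calls, so the counts are a description. They hold the same regions as the comparison with distal peaks called only when untreated, whose tests were given above. Of 798 with a CTCF hit and no SBS hit, 752 were also called with dTAG-V1 (94.2%, interval 92.4 to 95.7). Of 1768 with an SBS hit and no CTCF hit, 700 were (39.6%, interval 37.3 to 41.9). Of 3261 with neither, 2367 were (72.6%), and of 158 with both, 125 were (79.1%). Over all distal untreated regions, 3944 were also called with dTAG-V1 and 2041 were not.

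The summits of the 2 lists lay close together in most regions. The median distance between the untreated and the dTAG-V1 summit of a region was 11 bp in SBS-only regions, 23 bp in CTCF-only regions, 24 bp in regions with both and 38 bp in regions with neither. The SBS-only regions had the wider upper range, with an upper quartile of 58 bp against 40 bp in the CTCF-only regions, and 72.6% of them had summits within 50 bp of each other against 83.2%. Over all shared distal regions the median was 29 bp (quartiles 11 and 69), and 82.1% of the summits were within 100 bp of each other. At shared promoter peaks the median was 27 bp, with 75.1% within 100 bp. The longest distance, 1322 bp, was in an SBS-only region.

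Hits at p 1e-05 anywhere in the merged region were then set against the summit of each list. Among the 1144 regions with a CTCF hit, the dTAG-V1 summit was within 20 bp of the nearest hit in 629 (55.0%, interval 52.1 to 57.8) and the untreated summit in 376 (32.9%, interval 30.2 to 35.6). A summit placed at random in these regions would be this close to the centre of a hit in 7.60%. The dTAG-V1 summit was the nearer in 741 regions and the untreated summit in 385. Among the 1115 regions with an SBS hit, the untreated summit was within 20 bp in 548 (49.1%, interval 46.2 to 52.1) and the dTAG-V1 summit in 427 (38.3%, interval 35.5 to 41.2), with 6.95% for a random summit. Here the untreated summit was the nearer in 653 regions and the dTAG-V1 summit in 400. For SBS2 hits alone, these shares were 60.2% and 53.8% of 673 regions. In the 319 regions that held hits of both kinds, the nearer hit was CTCF for 175 of the untreated summits (54.9%) and for 227 of the dTAG-V1 summits (71.2%). Both summits of a region come from overlapping peaks and are not independent, so these shares are given with no test of their difference.

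**Figure D4:**
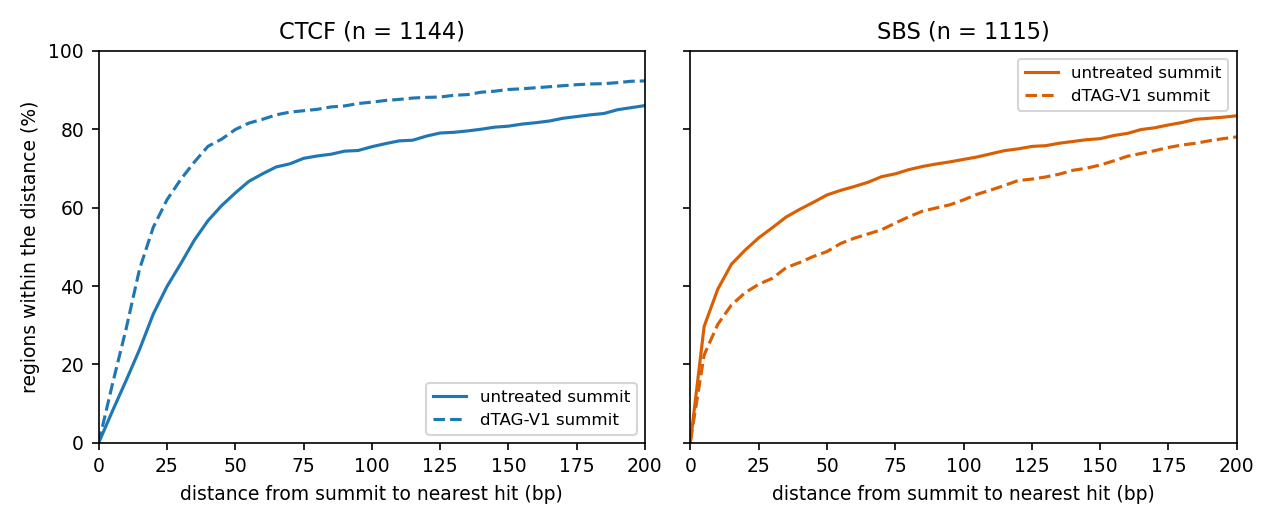
Cumulative share of regions (y axis, percent) whose summit lies within a given distance (x axis, bp) of the nearest CTCF hit (left, 1144 regions) or SBS hit (right, 1115 regions), for the untreated summit (solid) and the dTAG-V1 summit (dashed). At CTCF hits the dashed line lies above the solid line, with 55.0% against 32.9% within 20 bp, and at SBS hits below it, with 38.3% against 49.1%.

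Base composition differed between the classes. The window of 100 bp on either side of the untreated summit had a median GC content of 44.3% over all shared distal regions, against 42.8% in the flanks and 60.2% at shared promoter peaks. It was 56.2% in regions with both motifs, 49.3% in CTCF-only, 47.8% in SBS-only and 41.3% in regions with neither, whose own flanks had 40.8%. The ratio of observed to expected CpG had a median of 0.252 against 0.762 at the shared promoter peaks. The shared distal regions were thus poor in CpG, in contrast to the promoters.

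Short motifs from a list of 20 were searched by their letters on both strands in the same windows. ETS letters (CCGGAAG), which are frequent at promoters, were found in 1.29% of the shared distal regions and in 15.4% of the shared promoter peaks, and the GC box (GGGGCGG), which Sp1 binds, in 3.12% and 20.05%. The SBS-only and CTCF-only classes were defined by hits in these same windows, so letters of their own sites are frequent there by definition. In the SBS-only regions, the SBS core TTCCCA was found in 68.4% against 16.2% of all flanks and ACTACA in 46.7% against 10.6%. The CTCF core letters AGGGGGC and AGAGGGC were found in 22.7% and 26.1% of the CTCF-only regions, against 2.54% and 2.48% of the flanks. The CCAAT box was found in 39.6% of the SBS-only regions against 26.9% of the flanks and 24.1% of the CTCF-only regions. Short letters match by chance often, and a match is no site.

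The same letters were counted in the regions with neither motif, with no test. Here and for the words below, the flanks are those of all shared distal regions. Their median GC content was 42.8%, against 40.8% in the flanks of the regions with neither motif. GATA letters (AGATAAG), the site of a family of lineage factors, were found in 8.75% of the 2367 regions against 2.76% of the flanks and 3.86% of the distal peaks found only with dTAG-V1. AP-1 letters (TGANTCA), which Jun and Fos proteins bind, were found in 9.97% against 6.85% and 6.98%. TEAD letters (ACATTCC) were found in 3.84% against 2.57% and 3.15%, and in 5.71% of the SBS-only regions. RUNX letters (TGTGGTT) were found in 3.63% against 3.33% and 4.13%, and the intervals of the regions and of these flanks overlapped. The B box of tRNA genes (GGTTCGA) was present in 1.27% against 0.342% of the flanks. Without the regions at tRNA genes and in the families of copies described below, it was present in 0.144% of 2077 regions. Other letters were less frequent than in the flanks, with overlapping intervals: the octamer (ATGCAAAT) in 0.972% against 1.64% and the CCAAT box in 24.7% against 26.9%. Words of 8 letters were also ranked by their excess over the flanks on the odd-numbered autosomes, and their shares were read on the other chromosomes.

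The leading words of the regions with neither motif were variants of a single pattern around ATAAA. CTCATAAA (TTTATGAG on the other strand) was found in 5.89% of 1120 such regions against 0.863% of the flanks, GCAATAAA in 5.80% against 1.02%, and ATAAATCA in 6.34% against 1.91%. Letters of this type are known to be bound by posterior HOX and by CDX homeodomain proteins. The shorter words CATAAA and CAATAAA, added after these results were seen, were found in 31.3% and 13.1% of the 2367 regions. In the flanks they were found in 14.9% and 5.96%, and in distal peaks found only with dTAG-V1 in 18.4% and 7.14%. On the even-numbered autosomes and X, which did not rank the words, the shares were 32.9% and 13.6%. The words of the SBS-only and CTCF-only classes follow from the hits that defined these classes. In SBS-only regions the leading words were parts of the SBS2 site: CTGGGAAA was found in 46.3% of 352 regions against 1.81% of the flanks and ATTTCCCA in 44.03% against 1.43%. In CTCF-only regions they were parts of the CTCF site, with AGAGGGCA and CAGGGGGC each in 13.6% of 331 regions, against 1.08% and 0.566% of the flanks.

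Some of the regions were copies of each other. Windows of 100 bp on either side of the untreated summit that aligned over 100 bp or more at 80% identity or more were joined into families, a choice made after the data had been seen. In all, 327 shared distal regions (8.29%) fell into 45 families, against 790 (20.03%) of the windows 1 kb to the right. The shares were 3.19% in CTCF-only, 7.86% in SBS-only and 10.1% in regions with neither motif. Reads that map equally well to several copies were removed by the authors, so that recent copies may be missed in both lists.

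The family with the most members held 91 regions on 21 chromosomes, all without a hit at p 5e-05 of either motif in the window. Its median percentile was 55.5 untreated (quartiles 44.5 and 65.1) and 76.5 with dTAG-V1 (59.4 and 86.2), and the summits of the 2 lists differed by a median of 13 bp, against 38 bp for all regions with neither motif. The next family held 68 regions, 43 with neither motif, 17 SBS-only and 8 CTCF-only, with median percentiles of 25.0 and 50.1 and a median summit distance of 99.5 bp. A family of 17 regions had medians of 49.2 and 75.8 and a summit distance of 7 bp, and another of 17 had 56.2 and 71.4. In the latter, 14 of 17 held the word AGATAAGG with the GATA letters. A family of 10, also without a hit at p 1e-05, stood high in the untreated list, with a median percentile of 89.5 and a fold of 18.2, and at 83.4 with a fold of 4.75 with dTAG-V1. In 8 of these 10, an SBS hit at p 5e-05 was in the window. A family of 8 SBS-only regions had median percentiles of 87.2 and 91.8. Stretches of these windows, other than those of the family of 68, are shown because the copies share letters at the summit, with the 10 bases that most members of the family share in capitals.
Family of 91, chr12:57646048-57646097, plus strand: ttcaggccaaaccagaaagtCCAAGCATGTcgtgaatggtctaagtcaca
Family of 91, chr11:62088449-62088498, plus strand: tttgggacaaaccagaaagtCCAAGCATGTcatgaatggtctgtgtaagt
First family of 17, chr1:95897773-95897822, plus strand: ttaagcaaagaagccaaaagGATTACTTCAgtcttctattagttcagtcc
First family of 17, chrX:109554054-109554103, minus strand: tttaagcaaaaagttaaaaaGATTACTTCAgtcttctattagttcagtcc
Second family of 17, chrX:127867023-127867072, plus strand: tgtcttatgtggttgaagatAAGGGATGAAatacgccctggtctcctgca
Second family of 17, chr4:128265724-128265773, minus strand: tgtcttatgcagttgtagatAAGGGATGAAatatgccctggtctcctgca
Family of 10, chr17:82368200-82368249, plus strand: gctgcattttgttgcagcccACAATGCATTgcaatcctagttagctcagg
Family of 10, chr6:43391044-43391093, minus strand: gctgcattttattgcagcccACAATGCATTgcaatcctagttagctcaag
Family of 8, chr16:5208282-5208331, plus strand: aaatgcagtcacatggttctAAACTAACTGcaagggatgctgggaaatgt
Family of 8, chr4:9523063-9523112, plus strand: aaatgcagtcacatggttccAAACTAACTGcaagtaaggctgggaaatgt

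The capitals were present in 58 of 91, 16 of 17, 11 of 17, 10 of 10 and 8 of 8 members, in the order of the families above. In the family of 8, the letters ctgggaaatgt to the right of the capitals are the other strand of the SBS core. The region with the third-highest untreated score among those with neither motif, 3733 bp upstream of UTS2R, belongs to the family of 10 and ranked 1557 untreated and 1654 with dTAG-V1, with folds of 25.4 and 12.96. The highest of these regions, chr17:43367775-43368770 in the noncoding gene LINC00910, ranked 1178 and 1137 with folds of 27.7 and 18.95, and the next, chr9:79256433-79257478, 314817 bp upstream of the corepressor gene TLE4, ranked 1506 and 1505 with folds of 15.03 and 7.004. Of the 10 regions with neither motif above the 90th percentile of the untreated list, 9 held an SBS hit at p 5e-05 somewhere in the merged region. Of the 2258 at or below the 80th percentile, 32.4% did.

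Some of the regions with neither motif lay at tRNA genes. These are transcribed by RNA polymerase III from the A box and the B box inside the gene. The untreated summit was within 250 bp of a tRNA gene in 70 shared distal regions (1.77%), of which 57 had neither motif, 10 an SBS hit alone, 2 a CTCF hit alone and 1 both. The share of other classes of regions at a tRNA gene is not given here. In reverse, 74 of the 285 tRNA genes outside TSS windows and protein-coding genes (26.0%) had a shared region at this distance, 44 further genes had a region found only with dTAG-V1 and 1 a region found only untreated, while 166 had none. Over all 443 tRNA genes, 123 (27.8%) had a shared region, a share near that of the 285. The 70 regions had a median percentile of 30.9 untreated (quartiles 20.9 and 44.1) and 69.8 with dTAG-V1 (53.8 and 77.6). The summit was inside the tRNA gene in 25 regions when untreated and in 26 with dTAG-V1, at a median distance of 25.0 and 15.5 bp from it. Of the 70, 39 were on chromosome 6, and the share of all tRNA genes on that chromosome is not given here. Many tRNA genes are near-identical copies, and the authors kept uniquely mapped reads only.

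The tRNA genes at the 8 shared distal regions of this kind with the highest untreated scores are shown in the order of these scores, with the B box (GGTTCGA or GGTTCAA) in capitals, on the strand on which it reads.
TRC-GCA1-1, chr7:149310190-149310261, plus strand: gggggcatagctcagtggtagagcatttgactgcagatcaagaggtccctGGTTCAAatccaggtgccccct
TRL-TAA4-1, chr6:27230555-27230637, minus strand: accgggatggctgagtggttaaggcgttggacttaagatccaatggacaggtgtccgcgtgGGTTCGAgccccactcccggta
TRR-CCG1-3, chr16:3150674-3150746, plus strand: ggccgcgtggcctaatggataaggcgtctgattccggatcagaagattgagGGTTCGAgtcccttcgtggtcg
TRE-TTC1-1, chr2:130337128-130337199, minus strand: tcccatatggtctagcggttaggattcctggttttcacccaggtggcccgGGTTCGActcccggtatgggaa
TRH-GTG1-5, chr6:27158127-27158198, plus strand: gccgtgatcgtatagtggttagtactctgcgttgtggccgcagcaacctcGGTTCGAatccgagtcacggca
TRL-TAG2-1, chr14:20625370-20625451, plus strand: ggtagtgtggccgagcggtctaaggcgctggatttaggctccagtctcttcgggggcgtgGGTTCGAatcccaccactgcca
TRG-CCC6-1, chr1:121016845-121016915, minus strand: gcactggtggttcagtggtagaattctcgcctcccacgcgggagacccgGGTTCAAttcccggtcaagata
TRR-CCG2-1, chr17:68019897-68019969, minus strand: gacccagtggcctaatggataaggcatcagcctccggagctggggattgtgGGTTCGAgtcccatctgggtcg
At TRC-GCA1-1, a cysteine tRNA gene, the region held both motifs, ranked 2180 untreated and 5810 with dTAG-V1 with folds of 18.0 and 4.45, and had its untreated summit 121 bp from the gene. At TRL-TAA4-1, a leucine tRNA gene, the ranks were 2311 and 4741 with folds of 12.1 and 3.81, and the untreated summit was 233 bp from the gene. The regions at TRR-CCG1-3, TRE-TTC1-1 and TRL-TAG2-1, genes of arginine, glutamate and leucine tRNAs, had an SBS hit alone. Their untreated summits were 186, 65 and 49 bp from the gene and their dTAG-V1 summits 0, 0 and 13 bp. Their untreated ranks were 2791, 4250 and 4846 and their dTAG-V1 ranks 7780, 15840 and 13000, with untreated folds of 10.2, 8.52 and 6.45 and dTAG-V1 folds of 3.71, 3.66 and 3.53. At the histidine gene TRH-GTG1-5 the ranks were 4819 and 10525 with folds of 5.80 and 3.31, and the untreated summit was 46 bp from the gene. At the arginine gene TRR-CCG2-1 they were 5772 and 18388 with folds of 5.47 and 3.07, with both summits inside the gene. In TRG-CCC6-1, a glycine gene, the ranks were 5464 and 2896 with folds of 6.70 and 7.93.

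The replication-dependent histone genes of chromosome 6 lie among tRNA genes, and between the first and the last of these histone genes (chr6:25723397-27893891) there were 35 shared distal regions, of which 22 were at a tRNA gene. Their median percentiles were 26.3 untreated and 66.8 with dTAG-V1, and 25 of the 35 had neither motif. The region of TRL-TAA4-1 had the highest untreated score in this span. The next, chr6:27791260-27793274, 15662 bp from the TSS of the histone gene H2BC13, ranked 2958 and 12341 with folds of 8.68 and 2.95. The region chr6:26029282-26029644, 2180 bp upstream of the histone gene H4C2, ranked 4666 and 2800 with folds of 4.72 and 4.12. It was followed in the untreated list by the region of TRH-GTG1-5 and by chr6:27752341-27754189, which ranked 7178 and 13278 with folds of 4.02 and 3.01. The HOXB and HOXD spans each held 1 shared distal region. In the HOXB span it had the CTCF site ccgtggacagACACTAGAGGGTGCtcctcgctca, lay in LINC02086 38229 bp upstream of HOXB7, and ranked 12896 and 5464. In the HOXD span it was 3097 bp upstream of HOXD12, had neither motif and ranked 18542 and 30820. No shared distal region was found in the HOXA and HOXC spans, between the first and last clustered protocadherin gene, or between H19 and IGF2, parts of which the rule leaves out as TSS windows or protein-coding genes.

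By annotation, the centre was in no gene of any kind in 2879 shared distal regions (73.0%) and in a lncRNA gene in 1004 (25.5%), with 71 in a pseudogene. The nearest protein-coding TSS was at a median distance of 46501 bp (quartiles 16487 and 156708), and within 5 kb in 239 regions and beyond 500 kb in 296. The classes differed in this distance, with medians of 19377 bp for regions with both motifs, 25492 bp for CTCF-only, 47144 bp for SBS-only and 63664 bp for regions with neither. The median distance from a shared distal region to the next was 86908 bp, and 13.1% had another within 10 kb.

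The regions were spread unevenly over the chromosomes, as were all distal regions of the lists. Chromosome 6 held 2.22 per Mb, chromosome 22 held 2.204, chromosome 19 held 2.18 and chromosome 13 held 2.05, whereas chromosome 2 held 0.516 per Mb, with 125 regions. Of all distal merged regions, 29.6% of 1285 on chromosome 6 and 25.9% of 483 on chromosome 2 were shared, near the 28.8% over all chromosomes. On chromosome 2, 7 of the 125 regions (5.60%) had a CTCF hit and 27 (21.6%) an SBS hit. On chromosome 13, 23 of 234 (9.83%) had a CTCF hit and 21 (8.97%) an SBS hit. The CTCF share was 38.4% on chromosome 22 and 37.5% on chromosome 19. Among the distal peaks found only with dTAG-V1, 43.8% of 283 on chromosome 2 had a CTCF hit, near the 41.8% over all chromosomes. On chromosome 13 this share was 23.1% of 490, and on chromosome 22 it was 27.3% of 121.

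**Figure D5:**
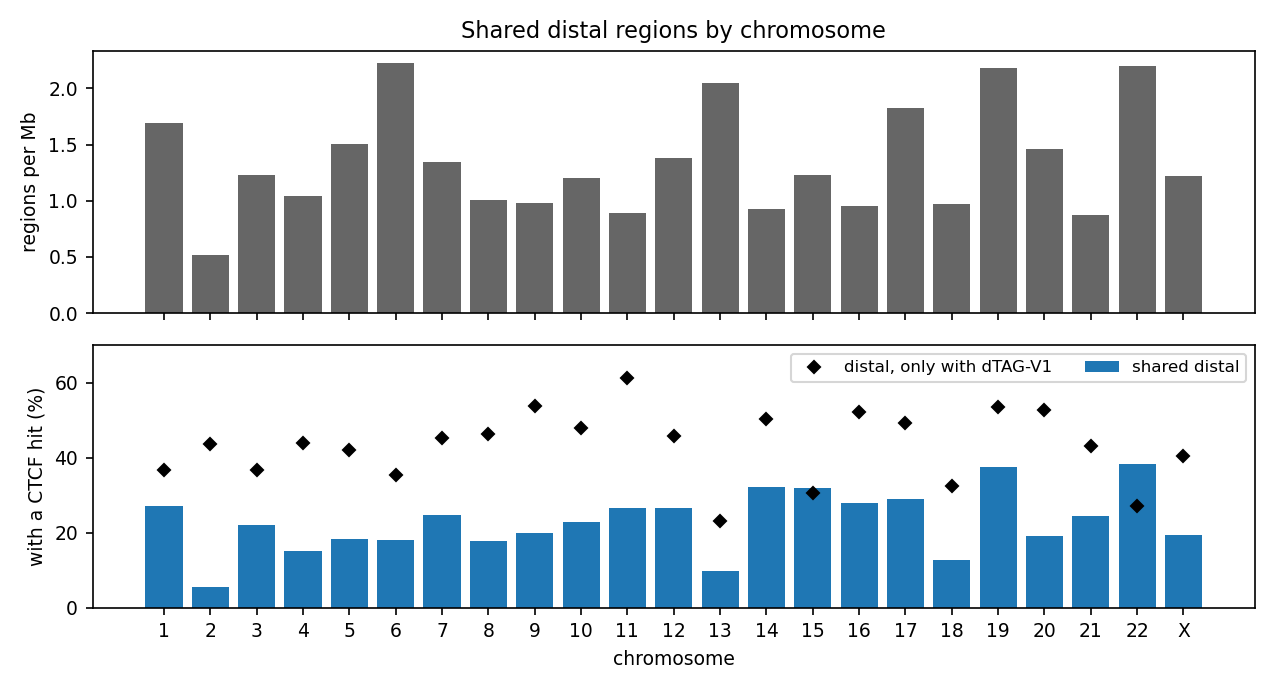
Shared distal regions per Mb (upper panel) and their share with a CTCF hit (lower panel, bars, percent) on each chromosome (x axis), with the share in distal peaks found only with dTAG-V1 as diamonds. Chromosome 2 has the fewest regions per Mb, 0.516, and the lowest CTCF share, 5.60%, while its diamond is at 43.8%.

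The thresholds of the rule cut through continuous values. The shared distal regions nearest to a TSS window were chr21:34361725-34362273, 7 bp outside the window of KCNE2, with folds of 2.87 and 4.75, and chr14:49915553-49915981, also 7 bp outside, with folds of 8.54 and 3.34. Just inside, the shared region chr16:69395984-69396819 was 2000 bp from a TSS of CYB5B with folds of 2.63 and 3.54. The next, chr19:13234534-13234821, was 996 bp from a TSS of CACNA1A with folds of 3.32 and 4.0. Then followed chr18:46324520-46325114, 1992 bp from a TSS of RNF165, with folds of 32.1 and 21.2. By overlap, 38 regions shared at most 100 bp between the lists, and the median overlap was 326 bp. The smallest overlap was 14 bp, in chr11:27019004-27019504, where the summits were 416 bp apart and the dTAG-V1 peak ranked 35027 of 35287, and the next was 17 bp, in chr13:90662582-90663075, with summits 401 bp apart. At a reciprocal overlap of 50% or more, 3053 of the shared distal regions were kept.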

How the data were processed

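The authors mapped read pairs to hg38 with bwa mem, kept uniquely mapped proper pairs, removed duplicates with Picard and called narrow peaks with MACS2, without a named control. The deposited lists hold an integer score per peak, a fold enrichment (ratio) at the summit and −log10 p- and q-values, all from the authors' call and each on the scale of its own list. Per the methods, untreated peaks had to be found in each replicate and dTAG-V1 peaks in any, and whether the deposited lists were filtered so is not known. Depth is unknown and 0 per-sample columns were left unused.

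Lists were merged with bedtools 2.31.1 and annotated with GENCODE release 44. Matrices for CTCF, SBS1 and SBS2 were learned from peaks of odd-numbered autosomes, seeded with sites that had up to 2 mismatches to a consensus, in 10 iterations with a pseudocount of 0.8 and the best site per peak at p 1e-06. Hits at p 1e-05 were counted within 100 bp of the untreated summit, or of the only summit. The search and the intervals were tested on simulated data. Intervals and tests used scipy 1.17.1, and families BLAST 2.17.0 with an E-value of at most 1e-10. The 20 short motifs are AP-1, TEAD, ETS, YY1, NRF1, CRE, E-box, GC box, CCAAT box, GATA, NFI, HNF4, RUNX, both CTCF cores, ACTACA, the SBS core, PAX2, the octamer and the B box. Places of tRNA genes are from RefSeq (GRCh38.p14), whose table gives no strand. The share of repeat-masked bases was not computed, since the reference used here is in capitals only.

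The regions, lists and tests were chosen with earlier results of these data known. Named regions are the 5 highest scores in each list, the 3 highest untreated scores of each motif class, those at the thresholds of the rule, and those in the protocadherin, HOX, histone and H19 spans or at tRNA genes (of spans and tRNA genes, the highest untreated scores). The families were added later. Alternatives are given in the closing section.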

Additional observations from a re-analysis of the deposited data

How the results depend on the processing

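The number of shared distal regions ranged from 2879 (also outside noncoding genes) to 4060 (windows of gene starts only). The share with a CTCF hit was 30.4% at p 5e-05, 42.8% at p 5e-05 in the whole merged region, 25.3% around the dTAG-V1 summit, 17.9% with the written consensus, 20.6% on even-numbered autosomes and X, and 20.8% at a reciprocal overlap of 50%. The share with an SBS hit was, under the same settings, 34.2%, 49.4%, 18.3% and 4.13%, and 22.6% at the reciprocal overlap. With SBS2 hits only, an alternative added after the data were seen, it was 13.1%. The CTCF difference from shared promoter peaks turned to -5.10 percentage points with p 5e-05 in the whole merged region (Fisher's exact test, adjusted p = 3.09e-07), and the cause was not tested. The CTCF difference from shared peaks inside genes passed the test there, at 2.81 points (Fisher's exact test, adjusted p = 0.0144), and with gene starts only, at 2.33 (Fisher's exact test, adjusted p = 0.00904). The SBS difference from the same peaks was 0.751 with gene starts only (Fisher's exact test, adjusted p = 0.398). The CTCF difference from shared peaks inside genes, which missed the threshold, also changed sign at the reciprocal overlap, to -0.0396. Of 72 alternative values of the differences, 67 kept both their direction and their side of the threshold. Of 18 alternative shares, 6 stayed within the interval of the reported share, and the 5 alternative counts stayed within 1.5 times the reported count. No paired analysis was possible because there is 1 list per condition with no value for a single sample, and for the same reason no replicate could be left out. Without read counts or depth, a call missing from a list cannot be told from a call below its threshold.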
